A study of Mus musculus with 8 samples.

Results

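The 9 genes described here, Gm17613, Olfr376, Ank3, Lrch1, Plcb4, Cdc34b, Trpc5os, Cep72 and Enpep, were taken from the top of a ranking by edgeR p between embryos lacking Gadd45a and Gadd45b and wild-type embryos. They are the listed genes that lie outside the targeted genes and did not pass Benjamini-Hochberg adjustment. They were 9 of 37310 genes in the count tables, and all 9 were among the 14970 genes that passed the filter on low counts and were tested. Because this contrast chose them, their levels and fold changes in DKO and wild-type pools are a description and not a test. RNA came from pools of 2-cell mouse embryos of the C57BL/6N strain, 4 pools wild-type and 4 pools Gadd45a/Gadd45b double knockout (DKO). Each pool held 23 to 35 embryos of 1 litter, taken 20 h after the vaginal plug from superovulated, naturally mated females aged 3 to 4 weeks. Mothers and embryos of a group shared a genotype, so maternal and embryonic loss of the genes cannot be told apart.

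GADD45 proteins are small stress-induced proteins without known enzyme activity, which bind partners in cell cycle arrest, DNA repair and active DNA demethylation. At the 2-cell stage the mouse embryo clears the RNA stored in the oocyte and switches on its own genome, so a level measured then can hold both stored and newly made RNA. In bulk pools, a change in the share of cells that carry a transcript and a change in the amount per cell cannot be told apart. The 9 genes belong to unrelated families: a long noncoding RNA, an olfactory receptor, proteins of the membrane skeleton, phospholipid signalling, ubiquitin transfer and the centrosome, and a peptidase of the cell surface. For Trpc5os, annotated as protein coding, no family is named here.

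The libraries held 21329736 to 23919114 counts with 18433 to 20427 genes detected. Gadd45b had 808 to 1395 counts in the wild-type libraries and 1 to 14 in the DKO libraries, so all 8 matched their genotype at Gadd45b. Gadd45a kept 163 to 247 counts in DKO against 341 to 502 in wild-type, a fold of 0.471 that edgeR did not call (adjusted p by edgeR = 0.303). The labels do not say which part of Gadd45a was deleted, and its counts therefore do not check them. The 9 oocyte and early embryo markers were all detected, with summed levels of 3690 to 5520 CPM (counts per gene scaled to a common library total) in wild-type and 5390 to 7730 in DKO. Most of that difference was Omt2a, at 2900 CPM in wild-type and 4400 in DKO, while Zp2, Zp3 and Nlrp5 had folds of 0.997, 1 and 0.989, and Tdpoz4 was lower in every DKO pool (fold 0.543); edgeR called none of the 9. Of 12 cumulus and granulosa markers, Amh, Foxl2, Ptx3 and Inhba were at 0 in every library. The summed level was 13.4 to 16.3 CPM in wild-type and 11.6 to 20.9 in DKO. Most of it came from 3 markers detected in every library. Their means in wild-type and DKO were 7.94 and 8.75 CPM for Tnfaip6, 3.66 and 4.18 for Vim, and 1.77 and 2.42 for Cyp19a1. Of 6 sperm markers, 4 stayed under 1 CPM in every library, and their sum was 0.518 to 1.47 CPM in wild-type and 1.11 to 2.37 in DKO. Haemoglobin transcripts stood out in 2 libraries, wild-type replicate 1 with 1576 Hbb-bs counts and DKO replicate 4 with 1776, where the other 6 had 0 to 4. DKO replicate 1 had the lowest quality weight of the 8 libraries in limma-voom, 0.365, where the others had 0.786 to 2.08.

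Reads of 85 bases cannot place Cdc34b and Olfr376 apart from their closest relatives within identical runs longer than a read, which are not shown. The first aligned 85 coding bases, the length of 1 read, are shown beside those of each relative. Capitals mark the bases that differ, by which a read there can be told apart. The sequences were read from GENCODE mouse release 21 transcripts.
Cdc34b, coding bases 1 to 85: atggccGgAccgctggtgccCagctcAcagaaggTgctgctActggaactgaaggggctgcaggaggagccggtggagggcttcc
Cdc34, coding bases 1 to 85: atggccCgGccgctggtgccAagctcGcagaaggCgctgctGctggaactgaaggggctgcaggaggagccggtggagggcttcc
Olfr376, coding bases 19 to 103: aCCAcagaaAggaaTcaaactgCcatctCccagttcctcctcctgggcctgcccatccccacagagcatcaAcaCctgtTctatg
Olfr20, coding bases 1 to 85: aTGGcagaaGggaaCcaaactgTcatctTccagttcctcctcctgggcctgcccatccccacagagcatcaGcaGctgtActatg
The Cdc34b and Cdc34 stretches differed at 6 bases, and over 701 aligned coding bases the pair was 96.1% identical with a longest identical run of 122 bases. Olfr376 and Olfr20 differed at 10 bases in the stretch and were 93.9% identical over 945 aligned bases, with a longest identical run of 117. Cdc34b and its other relative Ube2r2 were 74.3% identical over 700 bases, with no identical run longer than 26. Of all distinct 85-base words in a gene's annotated transcripts, 64 of 1168 (5.48%) in Cdc34b also occurred in Cdc34. Olfr376 shared 87 of 3341 (2.6%), with Olfr20, Olfr378, Olfr377-ps1 and Gm49340. Gm17613 shared 35 of 585 (5.98%), with 4930431F12Rik, 4930435F18Rik, Gbp5 and Gm29055. Ank3, Lrch1, Plcb4, Trpc5os, Cep72 and Enpep shared 0 such words with transcripts of other genes. Exact matches within introns or between genes were not examined, and values of Cdc34b, Olfr376 and Gm17613 are uncertain to the extent that shared reads were dropped or passed to a copy.

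Start regions of 5 of the 9 genes were matched by symbol in the RefSeq promoter table of build GRCm38.p6, and the 100 bases before the start are shown because DNA demethylation, a process GADD45 proteins are linked to, acts on CpG dinucleotides. Capitals mark each CpG. The counts were made on an older build, and no count is tied to these positions.
Lrch1, chr14:74947878-74947977, minus strand: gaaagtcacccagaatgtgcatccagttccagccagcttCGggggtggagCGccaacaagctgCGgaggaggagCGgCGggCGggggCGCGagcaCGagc
Plcb4, chr2:135659447-135659546, plus strand: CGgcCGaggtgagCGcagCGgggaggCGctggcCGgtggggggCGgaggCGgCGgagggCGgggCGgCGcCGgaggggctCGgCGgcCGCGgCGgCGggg
Trpc5os, chrX:144456482-144456581, plus strand: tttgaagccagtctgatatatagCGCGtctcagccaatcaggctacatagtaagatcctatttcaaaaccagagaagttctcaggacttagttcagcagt
Enpep, chr3:129332750-129332849, minus strand: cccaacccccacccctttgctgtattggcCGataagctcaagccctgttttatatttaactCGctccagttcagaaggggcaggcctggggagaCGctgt
Cep72, chr13:74062286-74062385, minus strand: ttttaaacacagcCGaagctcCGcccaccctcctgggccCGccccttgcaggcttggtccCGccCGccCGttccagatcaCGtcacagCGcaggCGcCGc
The table's sequence after the listed start lay whole within a GENCODE transcript of the gene for Trpc5os and Cep72, but not for Lrch1, either Plcb4 start or Enpep, so for those 3 genes the start in use in these embryos is uncertain. The 5 regions did not share 1 type of base composition. Over the 250 bases before the start, Plcb4 held 42 CpG, the 99.1 percentile of the 32851 promoters in the table, Lrch1 held 16 and Cep72 held 15. Enpep held 6, which was the median of all promoters, and Trpc5os held 4. A second listed start of Plcb4 held 3. Of 4 motifs searched on both strands in those 250 bases, GGGCGG was present in Lrch1, the first Plcb4 start and Cep72, and in 32.7% of all promoters. CCAAT was present in Trpc5os and Enpep (33.8% of all promoters), TATAAA in Enpep (12.4%) and GGATTA in Cep72 (6.25%). The 4 genes higher in DKO therefore held no motif of these 4 in common.

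Of the 9 genes, 8 were higher and 1, Cep72, was lower in DKO, and in all 9 the DKO pools did not overlap the wild-type pools. Across all genes tested 5.34% did not overlap between the genotypes, 2.79% with DKO higher and 2.55% with DKO lower, and edgeR called 0.0267% after adjustment (0.00668% higher and 0.02% lower in DKO). The rule used this contrast, so nothing is read from the members' count. The genes held places 5 to 7, 9 to 13 and 17 in the order of edgeR p, with unadjusted p from 2.33e-05 (Gm17613) to 0.000472 (Enpep) and edgeR adjusted p from 0.0697 to 0.394. The last gene that passed adjustment was 1190007I07Rik, at an edgeR adjusted p of 0.000556. The places between the 9 genes were held by Gadd45a (place 8), Zc3h6 (14), 4930595M18Rik (15) and Fxyd6 (16), and the next gene after Enpep was Gm15518, with an unadjusted edgeR p of 0.000489 against 0.000472. The end of the list is therefore not marked by a step in p.

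**Figure D1:**
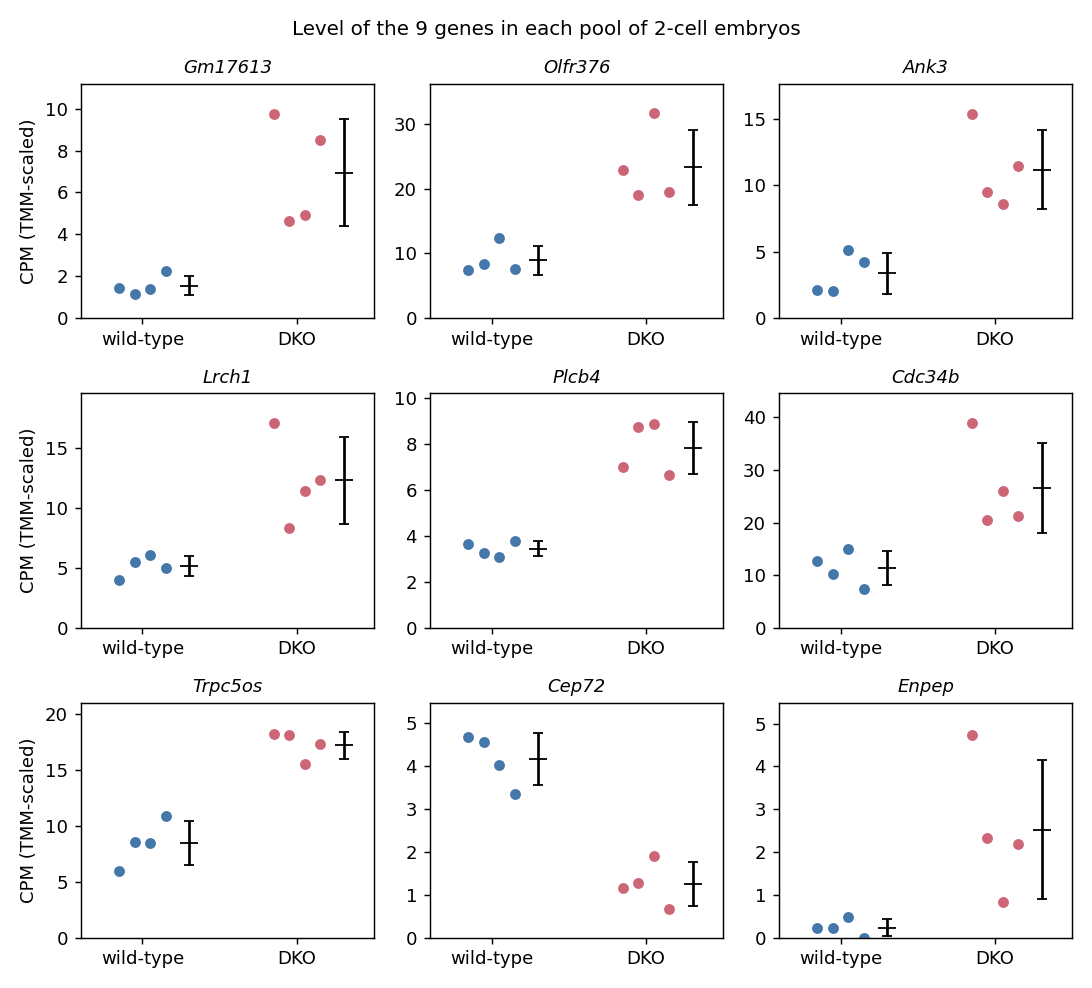
Level of each of the 9 genes in CPM (vertical axes, linear from 0) in the 4 wild-type pools (blue) and 4 DKO pools (red), with replicates 1 to 4 from left to right; black marks are the mean with SD. In every panel the groups are apart, with DKO below wild-type only for Cep72, where DKO pools lie at 0.667 to 1.9 CPM and wild-type pools at 3.35 to 4.66.

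Ank3 (ENSMUSG00000069601, chromosome 10) encodes ankyrin-G, which ties membrane proteins to the spectrin skeleton. Its counts were 49, 44, 115 and 95 in wild-type replicates 1 to 4 and 344, 216, 195 and 258 in DKO. The wild-type pools fell into a lower pair (replicates 1 and 2) and a higher pair, and the lowest DKO pool was still 1.68 times the highest wild-type pool. The mean was 3.38 ± 1.56 CPM in wild-type and 11.2 ± 3.01 in DKO (± SD, 4 pools each), a log2 ratio of DKO to wild-type (the fold change on a log2 scale) of 1.73 ± 0.34 (SE). Per kilobase of its 34838 exonic bases, the union over 47 annotated transcripts, this was 0.097 CPM in wild-type, above 2.55% of tested genes. Its longest transcript has 9963 bases, so this scale sets Ank3 low. In CPM without length scaling, its wild-type level was above 32.5% of tested genes. Ank3 lies on the chromosome of Gadd45b, 10.9 Mb away on GRCm38, and shared that chromosome with no other gene of the 9.

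Lrch1 (ENSMUSG00000068015, chromosome 14) encodes a protein with leucine-rich repeats and a calponin homology domain that is known to bind the exchange factor DOCK8. It had 93, 120, 135 and 112 counts in the wild-type pools and 383, 190, 258 and 276 in the DKO pools. DKO replicate 1 was the highest and DKO replicate 2 the lowest of its group, 1.38 times the highest wild-type pool. The means were 5.14 ± 0.86 and 12.3 ± 3.64 CPM (± SD, 4 pools each), with a log2 ratio of 1.26 ± 0.27 (SE).

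Plcb4 (ENSMUSG00000039943, chromosome 2) encodes a phospholipase C that cleaves membrane phosphoinositide into the messengers IP3 and diacylglycerol when Gq-coupled receptors are active. Counts were 85, 71, 69 and 85 in wild-type and 157, 199, 201 and 150 in DKO. Both groups were tight, with coefficients of variation of 9.74% and 14.6%, and DKO replicates 1 and 4 formed the lower pair. The means were 3.45 ± 0.336 and 7.83 ± 1.15 CPM (± SD, 4 pools each), and the log2 ratio was 1.18 ± 0.25 (SE).

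Olfr376 (ENSMUSG00000063881, chromosome 11) encodes an odorant receptor of the G protein-coupled class. Its counts were 171, 183, 275 and 169 in wild-type and 512, 435, 717 and 439 in DKO. Replicate 3 was the highest pool of both groups. The means were 8.91 ± 2.3 and 23.3 ± 5.85 CPM (± SD, 4 pools each), with a log2 ratio of 1.39 ± 0.24 (SE).

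Cdc34b (ENSMUSG00000020870, chromosome 11) is a near-identical relative of Cdc34, the ubiquitin-conjugating enzyme that works with SCF ligases. GENCODE lists Cdc34b as protein coding, and whether it makes a protein was not examined. Cdc34b had 294, 224, 333 and 165 counts in the wild-type pools and 870, 464, 589 and 477 in the DKO pools. Wild-type replicate 4 was the low end and DKO replicate 1 the high end, and the nearest pools of the groups were 1.37-fold apart, the narrowest gap among the 9 genes. The means were 11.3 ± 3.22 and 26.6 ± 8.55 CPM (± SD, 4 pools each), and the log2 ratio was 1.24 ± 0.26 (SE). Per kilobase it was the most abundant of the 9 genes, at 9.03 CPM in wild-type and 21.3 in DKO.

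Trpc5os (ENSMUSG00000072934, X chromosome) is annotated as protein coding and lies on the strand opposite to the calcium channel gene Trpc5. Its counts were 139, 187, 189 and 243 in wild-type and 406, 411, 350 and 389 in DKO. The DKO pools were the closest together of any gene of the 9, with a coefficient of variation of 7.18%. The means were 8.48 ± 1.99 and 17.2 ± 1.24 CPM (± SD, 4 pools each), and the log2 ratio of 1.02 ± 0.22 (SE) was the smallest of the 9 in size.

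Gm17613 (ENSMUSG00000090284, chromosome 14) is annotated as a long intergenic noncoding RNA of 669 exonic bases and carries a placeholder symbol. It had 33, 25, 31 and 50 counts in the wild-type pools and 218, 106, 111 and 191 in the DKO pools. DKO replicates 1 and 4 lay well above replicates 2 and 3, and the lowest DKO pool was 2.08 times the highest wild-type pool, the widest gap of the 9. The means were 1.55 ± 0.474 and 6.95 ± 2.56 CPM (± SD, 4 pools each), and the log2 ratio was 2.16 ± 0.36 (SE).

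Enpep (ENSMUSG00000028024, chromosome 3) encodes glutamyl aminopeptidase, the cell-surface enzyme that turns angiotensin II into angiotensin III. It was near the limit of detection in wild-type, with 5, 5, 11 and 0 counts, and had 106, 53, 19 and 49 counts in DKO. The 0 in wild-type replicate 4 allows a level of up to 0.134 CPM (3 counts of that library). DKO replicate 1 held the highest and DKO replicate 3 the lowest level of its group, a 5.64-fold range. The means were 0.234 ± 0.201 and 2.52 ± 1.62 CPM (± SD, 4 pools each), and the log2 ratio of 3.40 ± 0.76 (SE) had the largest size and the largest error of the 9. Per kilobase its wild-type level was above 0.59% of tested genes, and the gene passed the filter through its DKO counts.

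Cep72 (ENSMUSG00000021572, chromosome 13), a centrosome protein known to recruit kizuna to the spindle pole, was the member lower in DKO. It had 108, 99, 90 and 75 counts in the wild-type pools and 26, 29, 43 and 15 in the DKO pools. DKO replicate 3 was the highest of its group, and the lowest wild-type pool was still 1.76 times as high. The means were 4.15 ± 0.599 and 1.25 ± 0.507 CPM (± SD, 4 pools each), 3.31-fold lower in DKO, with a log2 ratio of −1.72 ± 0.37 (SE).

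Levels were compared between genes per kilobase of exon. Exonic bases were the union over all annotated transcripts of a gene, and the order on transcript lengths was not examined. On that scale the wild-type means were above 0.59% (Enpep) to 70.5% (Cdc34b) of the tested genes. Per kilobase of exon, the wild-type order was Cdc34b (9.03 CPM), Olfr376 (2.67), Trpc5os (2.36), Gm17613 (2.31), Lrch1 (0.665), Cep72 (0.507), Plcb4 (0.385), Ank3 (0.097) and Enpep (0.0498). Apart from the steps from Cdc34b to Olfr376, from Gm17613 to Lrch1 and from Plcb4 to Ank3, neighbours in that order overlapped in their pools. Other than chromosomes 11 (Olfr376 and Cdc34b, 21.4 Mb apart on GRCm38) and 14 (Gm17613 and Lrch1, 45.8 Mb apart), no chromosome held more than 1 of the 9.

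**Figure D2:**
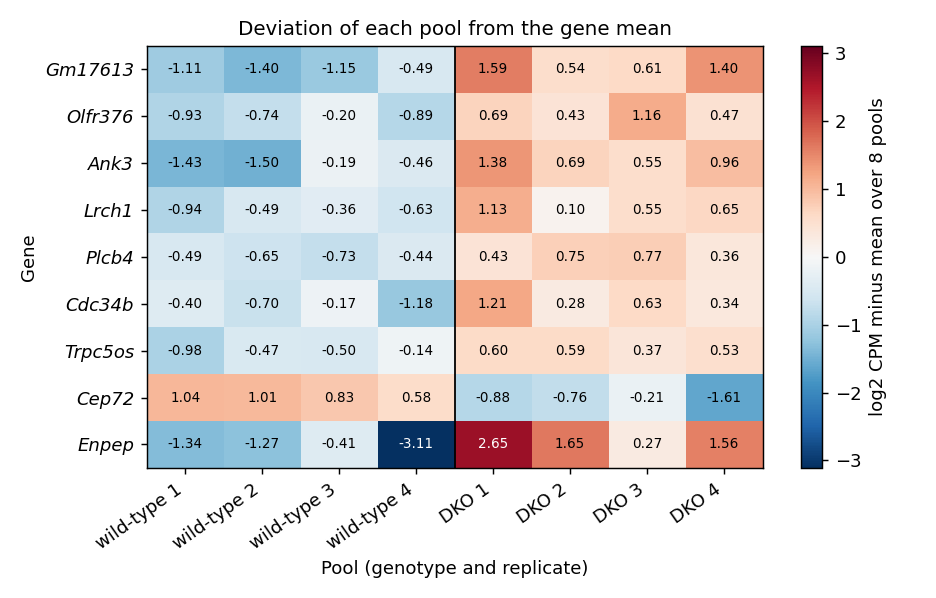
Deviation of each pool (columns, genotype and replicate) from the gene's mean log2 CPM over the 8 pools, for the 9 genes (rows); red is above and blue below the mean, and each cell prints its value. DKO replicate 1 carries the strongest red for Enpep (2.65), and wild-type replicate 4 the strongest blue (−3.11), where Enpep had 0 counts.

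The pools did not rank alike within a genotype. Among the 8 genes higher in DKO, DKO replicate 1 was the highest DKO pool for 6 (Gm17613, Ank3, Lrch1, Cdc34b, Trpc5os and Enpep) and DKO replicate 3 for 2 (Olfr376 and Plcb4). In wild-type, replicate 3 was the highest pool for 5 of those 8 and replicate 4 for 3. The libraries with haemoglobin transcripts, wild-type replicate 1 and DKO replicate 4, were the highest of their group for 0 of the 8 and the lowest for 3 (Olfr376, Lrch1 and Trpc5os) and 1 (Plcb4). For Cep72, wild-type replicate 1 was the highest of its group and DKO replicate 4 the lowest, and the log2 ratio was −1.67 without the first and −1.52 without the second. Without DKO replicate 1 the log2 ratios of the 8 genes were between 0.99 (Cdc34b and Trpc5os) and 2.90 (Enpep). Over each library left out in turn, all 9 genes kept their direction, and the widest ranges were those of Enpep (2.90 to 4.02) and Cep72 (−1.99 to −1.52). The fold change of Enpep was over 1.5 times larger without wild-type replicate 3, at a log2 value of 4.02.

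**Figure D3:**
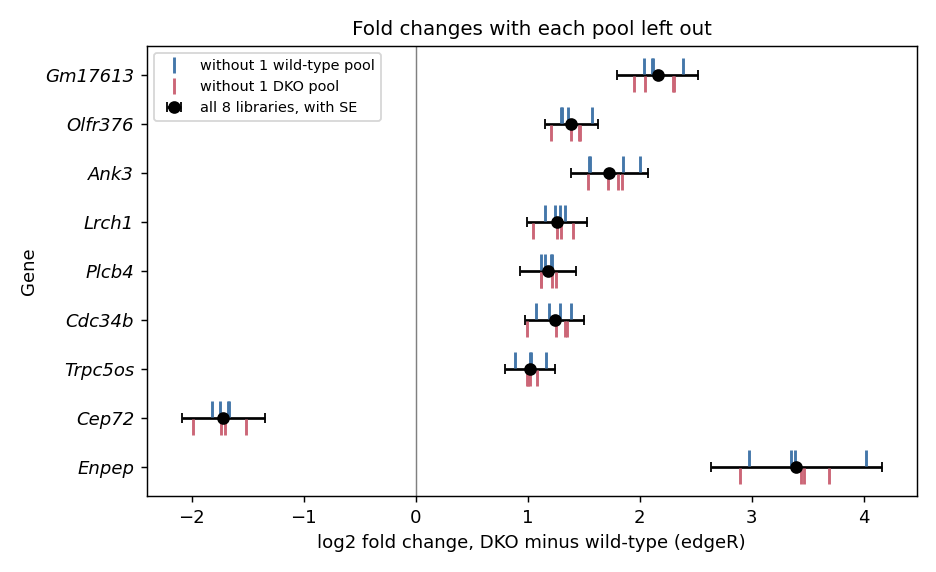
Log2 fold change of each gene (horizontal axis, DKO minus wild-type, edgeR) with all 8 libraries (black, bars SE) and with 1 wild-type pool (blue ticks) or 1 DKO pool (red ticks) left out. No tick crosses 0; Trpc5os comes closest at 0.89, and Enpep has the widest spread, from 2.90 to 4.02.

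The families and pathways of the 9 genes were then read in the same fit, with the 9 genes themselves left out. Of 173 tested partner genes in 8 lists, edgeR called 0 after adjustment over all genes, where it called 0.0267% of all genes tested. DESeq2 (which called 0.267% of all genes, 0.163% higher and 0.103% lower) and limma-voom also called 0. In 10 of the 173 the genotypes did not overlap, 8 higher and 2 lower in DKO, where 5.34% of all genes did not overlap. At an unadjusted edgeR p under 0.05, 12 were higher and 4 lower, 9.25% of the partners where 10.2% of all genes tested reached it. A positive log2 ratio was found in 107 of the 173 (61.8%) and in 51.2% of all genes. The partner lists had medians between −0.03 and 0.51, where the median over all genes was 0.01.

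For the scaffold genes, the only other tested ankyrin was Ank2, which was not called. Ank2 had 97 counts in the wild-type pools and 137 in the DKO pools, with a log2 ratio of 0.48 ± 0.51 (SE, adjusted p by edgeR = 0.733). Ank1, below the filter, had 0, 0, 3 and 1 counts in the wild-type pools and 7, 14, 5 and 26 in the DKO pools. Of the 18 tested genes of the ankyrin and spectrin skeleton, 14 had a positive fold change (median 0.14). The 2 with the smallest p were Add3, an adducin that caps actin at the spectrin network, at 5.09 ± 1.78 and 8.95 ± 1.14 CPM (± SD, 4 pools each, adjusted p by edgeR = 0.469), and the adhesion protein Cdh1, at 8.23 ± 2.61 and 14.2 ± 3.8 CPM (± SD, 4 pools each, adjusted p by edgeR = 0.469). Both overlapped between the genotypes.

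No relative of Lrch1 or Plcb4 was called. Lrch3 was at 8.39 ± 2.68 CPM in wild-type and 7.3 ± 1.63 in DKO (± SD, 4 pools each), with a log2 ratio of −0.20 ± 0.28 (SE, adjusted p by edgeR = 0.8), and its sign was positive in 2 other settings. Dock8, the known partner of LRCH1, had a log2 ratio of −0.14 ± 0.60 (SE, adjusted p by edgeR = 0.945), and Dock9 was at 0.36 ± 0.19 (SE, adjusted p by edgeR = 0.511). Of the 15 tested genes of that list, 10 were positive (median 0.11). Plcb1, which lies next to Plcb4 at 184 kb on GRCm38, had a log2 ratio of 0.17 ± 0.30 (SE, adjusted p by edgeR = 0.845). Plcb3 was at −0.23 ± 0.54 (SE, adjusted p by edgeR = 0.885), and Plcb2 had 2 counts over the 8 libraries. Of 28 tested genes of phospholipase C signalling, 16 were positive (median 0.17), and Gna14, a G protein alpha subunit that activates phospholipase C beta, had the smallest p (log2 ratio 0.43, adjusted p by edgeR = 0.471), before Rgs3, a regulator of G protein signalling (1.26, adjusted p by edgeR = 0.489).

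Cdc34, the closest relative of Cdc34b, was at 49.6 ± 3.08 CPM in wild-type and 63.7 ± 9.15 in DKO (± SD, 4 pools each). Its counts were 1100, 1052, 1213 and 1085 in wild-type and 1729, 1332, 1312 and 1373 in DKO. The groups did not overlap, with DKO replicate 1 the highest, but the gene was not called (log2 ratio 0.36 ± 0.16, SE, adjusted p by edgeR = 0.475). The pair shares 64 read-length words, and the part of Cdc34 reads in the Cdc34b value was not tested. Ube2r2 had a log2 ratio of −0.05 ± 0.22 (SE, adjusted p by edgeR = 0.951). In the list of CDC34 enzymes and SCF ligase genes, 12 of 23 were positive. The smallest p belonged to Cops5, the deneddylase subunit of the COP9 signalosome, at −0.73 ± 0.20 (SE, adjusted p by edgeR = 0.469). All its DKO pools lay below all wild-type pools, as did those of Nedd8 (log2 ratio −0.22, adjusted p by edgeR = 0.543). With Cdc34 these were the 3 of 23 without overlap, where 5.34% of all genes did not overlap.

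Trpc5, on the strand opposite to Trpc5os, had 21, 51, 25 and 33 counts in the wild-type pools and 58, 70, 43 and 58 in the DKO pools. The groups overlapped, and the log2 ratio was 0.80 ± 0.41 (SE, adjusted p by edgeR = 0.496). The 2 genes overlap on the chromosome, and their annotated exons share 0 bases in GENCODE. Reads from introns or unannotated exons of one could still count for the other if strand was not used. Trpc4 had a log2 ratio of 0.86 and Trpc1 of 0.27, and over the 11 tested genes of the channel list 6 were positive. The smallest p there belonged to Orai1, the pore of store-operated calcium entry, at −0.44 ± 0.18 (SE, adjusted p by edgeR = 0.471).

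The partner of Cep72 had the opposite sign and was not called. Kiz, which encodes kizuna, had 380, 407, 458 and 406 counts in the wild-type pools and 592, 746, 550 and 553 in the DKO pools, with no overlap between the groups. Its means were 18.4 ± 1.67 and 27.0 ± 3.93 CPM (± SD, 4 pools each), a log2 ratio of 0.55 ± 0.18 (SE, adjusted p by edgeR = 0.469). Ofd1, another centriolar satellite protein, was at 30.1 ± 3.49 and 42.2 ± 5.71 CPM (± SD, 4 pools each, adjusted p by edgeR = 0.469). Pcm1, the scaffold of the satellites, was at 171 ± 16.5 and 214 ± 35.4 CPM (± SD, 4 pools each, adjusted p by edgeR = 0.489). These were the 3 of 27 tested genes in the centrosome list with every DKO pool above every wild-type pool, and 0 had every DKO pool below. Of all genes, 2.79% were above and 2.55% below in this way. Of 27 tested genes of the centrosome list, 13 were positive and the median was −0.03, and Tubg1, the gamma-tubulin of the spindle pole, was at −0.42 (adjusted p by edgeR = 0.475).

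For Enpep and Olfr376 the wider families gave no call. None of the 15 tested angiotensin and aminopeptidase genes reached an unadjusted edgeR p under 0.05, and 11 had a positive fold change. Dpp4 (0.98 ± 0.72, SE, adjusted p by edgeR = 0.607) and Rnpep (0.19 ± 0.16, SE, adjusted p by edgeR = 0.647) had the smallest p. Anpep, another cell-surface aminopeptidase, was at 1.38 ± 0.664 and 1.25 ± 0.73 CPM (± SD, 4 pools each, adjusted p by edgeR = 0.944), and its sign was positive in 2 other settings. Agt, the angiotensin precursor, had 32 and 48 counts in all, and Ace had 3 and 5. Of 984 other olfactory receptor genes and pseudogenes in the tables, 215 had a count in any library and 36 were tested. Of those 36, 25 were positive with a median of 0.51. At an unadjusted edgeR p under 0.05, 3 (8.33%) were higher and 0 lower. Of all 14970 genes tested, 867 were higher and 665 lower at that p, 10.2% in either direction. In 4 of the 36 the groups did not overlap, all higher in DKO, where 2.79% of all genes did so with DKO higher. Receptors with few counts could pass the filter mainly through the genotype in which they were higher, so these shares are a description. Olfr602-ps1 (log2 ratio 0.94 ± 0.39, SE) and Olfr1104 (0.81 ± 0.34, SE) had the smallest p, each with an edgeR adjusted p of 0.471. Near-identical receptors can share reads, so single members of this family are uncertain.

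**Figure D4:**
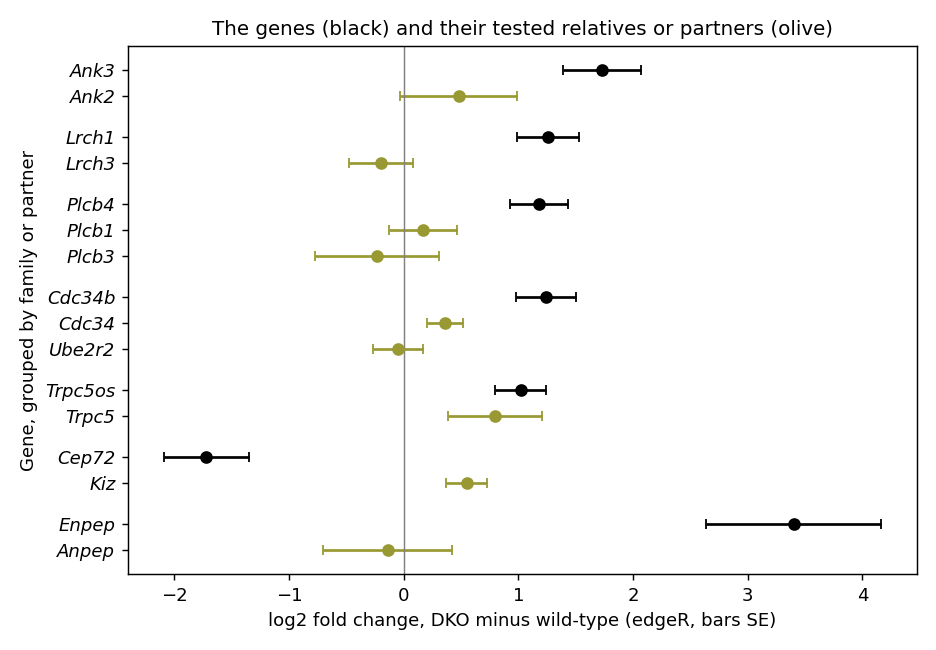
Log2 fold change (horizontal axis, DKO minus wild-type, edgeR, bars SE) of 7 of the 9 genes (black) and of 9 selected relatives or partners (olive), grouped by family; other genes of the same lists are not drawn. The black points lie from −1.72 (Cep72) to 3.40 (Enpep), and the olive points lie between −0.23 (Plcb3) and 0.80 (Trpc5); differences within a group were not tested.

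The genes beside the 9 on their chromosomes were examined as the 3 nearest tested genes on each side. Of these 54 neighbours edgeR called 0, as did DESeq2 and limma-voom, where edgeR called 0.0267% of all genes tested. Of the 54, 0 separated the genotypes without overlap, where 5.34% of all genes did so. At an unadjusted edgeR p under 0.05, 6 were higher and 3 lower, 16.7% against 10.2% of all genes. The 6 higher ones were Zfp616 beside Olfr376 (log2 ratio 0.41), Fam13c beside Ank3 (0.47) and Gm15629 beside Lrch1 (1.18). The others were Pak7 beside Plcb4 (0.5), Gm11541 beside Cdc34b (1.80) and Egf beside Enpep (0.86). The 3 lower ones lay 75.6 to 107 kb from Cep72, behind nearer genes. They were Brd9, a subunit of a chromatin remodelling complex (log2 ratio −0.53), Trip13, an ATPase of the spindle checkpoint (−0.55), and Exoc3, an exocyst subunit (−0.63). Their edgeR adjusted p were 0.471, 0.47 and 0.484, and whether the region around Cep72 moved together was not tested. Tppp, 0.746 kb from Cep72, was at −0.65 ± 0.47 (SE, adjusted p by edgeR = 0.605), and Slc9a3 on its other side was at 0.25. Beside Ank3, the mitotic kinase gene Cdk1 was at −0.34 ± 0.18 (SE, adjusted p by edgeR = 0.501) and Ccdc6 at 0.21 ± 0.15 (SE, adjusted p by edgeR = 0.592). Pak7, next to Plcb4, was at 115 ± 15.3 and 163 ± 33.2 CPM (± SD, 4 pools each, adjusted p by edgeR = 0.469). Beside Cdc34b, the placeholder genes Gm11541 and Gm11545 had log2 ratios of 1.80 ± 0.65 and 0.42 ± 0.22 (SE, adjusted p by edgeR = 0.469 and 0.506), the first from 33 and 117 counts. Other nearest neighbours were Rap2a (0.26) and Ipo5 (−0.32) for Gm17613, Aspa (−1.82) and Zfp735 (0.25) for Olfr376, Esd (0.03) and Rubcnl (0.42) for Lrch1, Alg13 (0.22) and Lhfpl1 (0.23) for Trpc5os, and Elovl6 (−0.15) for Enpep, all as log2 ratios with overlapping groups. The ratio of Aspa rests on few counts, 47, 8, 22 and 20 in wild-type and 0, 0, 27 and 0 in DKO. Its SE was 1.15 (adjusted p by edgeR = 0.564).

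Genes that ran most like each of the 9 over the pools were found by the root mean square difference of log2 CPM after centring each gene on its mean over the 8 pools, a measure that includes the genotype difference. Only genes with a mean log2 CPM of at least 0 and no placeholder symbol were searched, while the median distances cover all tested genes. The closest of the searched genes was Glis1, a zinc finger transcription factor, at 0.16 from Cdc34b. Cpne5 followed at 0.20, where the median gene stood at 0.82 from Cdc34b. Trpc5os and Plcb4 had the same closest gene, Aifm3, at 0.17 and 0.21, then Malt1 (0.24) and Ppp2r2b (0.23), and Trpc5os and Plcb4 were themselves the closest pair among the 9, at 0.29. Lrch1 was followed by the efflux transporter gene Abcb1b at 0.20 and the cytokine gene Il33 at 0.22. The closest genes to Olfr376 were Galnt6 (0.31) and Adamts9 (0.32), and the closest to Gm17613 were Cbfa2t3 (0.29) and Ank3 (0.40). Ank3 had Ptp4a3 (0.37) and Stat6 (0.44), and Cep72 had Gpat2 and Arhgef6 (both 0.42). Among the searched genes, Enpep had none nearer than Raet1d at 1.04 and Kera at 1.05, where its median distance was 1.82. These values are a description over the 8 pools that chose the 9 genes.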

How the data were processed

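Poly(A) RNA of 8 pools of 2-cell embryos was measured by RNA-seq. A SMART-Seq kit gave cDNA in 11 PCR cycles and a NuGEN Ovation kit gave libraries in 11 more, per the labels' protocols, and the 8 libraries were sequenced on 1 flow cell as single reads of 85 cycles. The authors deposited raw read counts for each Ensembl gene, without normalization. STAR 2.5.2b, featureCounts 1.5.1 and DESeq2 1.18.1, and builds NCBIM37 and mm9, are named in the submitters' processing notes; strand and multi-mapping settings are not given in the sources used here. Reads carry no molecular identifiers, so floors cover counting error only.

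Of 37310 gene identifiers, 32620 matched a symbol. Low-count genes were removed by filterByExpr, libraries scaled by TMM, and genes tested with edgeR 4.0.16 (robust quasi-likelihood test, R 4.3.3, threshold 0.05 after Benjamini-Hochberg adjustment over 14970 genes); log2 CPM used a prior count of 2. Alternatives were DESeq2 1.42.0, limma-voom (limma 3.58.1), other scalings and filters, a replicate block, pool size as a covariate, another prior count for fold changes, and each library left out. The gene tests were tested on simulated data. Lengths, neighbours and distances came from GENCODE mouse release 21 on GRCm38, and upstream sequences from RefSeq (GRCm38.p6). Pools were separate litters, and the lowest chi-square per degree of freedom between pools of a genotype was 24, so each counted as 1 replicate.

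The 9 genes and the lists were chosen with earlier results of these data known. Named genes were the 9 genes, the targets, the genes around them in the order of p, and relatives of a member. Also named were the nearest neighbours and, in each list, the called genes or else the 2 with the smallest p. The last were the 2 most alike genes without a placeholder symbol whose mean log2 CPM reached 0. Pcm1, Tubg1, Nedd8, Dock8, Trpc1, Trpc4, Agt, Ace, Brd9, Trip13, Exoc3, Zfp616, Fam13c, Gm15629 and Egf were named after their values were seen. Some genes that the rule names are not reported here.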

Additional observations from a re-analysis of the deposited data

How the results depend on the processing

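All 9 genes kept their direction in 17 alternative settings, each within 1 SD of pools of its main value. The number of genes called by edgeR, 4, was also 4 with each library left out (lowest and highest both 4), with RLE or library size scaling, with at least 10 counts in 4 libraries, with pool size as a covariate and with the replicate block. It was 5 with limma-voom. DESeq2 called 49 genes and edgeR without a filter on low counts called 7; the cause was not tested. DESeq2 gave adjusted p under 0.05 for all 9 genes, from 1.28e-05 (Gm17613) to 0.00694, which comes from the contrast that chose them. Gm17613, Olfr376 and Ank3 also passed with no filter, and Olfr376 with limma-voom (adjusted p = 0.0441); over the 16 settings with a p, edgeR or other adjusted p of the 9 genes reached 0.481 to 0.798. No partner or neighbour was called in any setting (0 and 0 with each library left out). The replicate block changed no call, 4 genes being called with it; same-numbered pools were not paired, with correlations of their deviations of 0.002 to 0.078.

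The sign of some uncalled relatives and neighbours turned, and the cause was not tested. Lrch3 was at 0.02 with limma-voom, Ube2r2 at 0.01 with library size scaling and with the pool size covariate, and Esd at −0.06 with the replicate block. With 1 library left out at a time, values ranged from −0.36 to 0.01 for Lrch3, −0.77 to 0.28 (and 0.02 in a second case) for Plcb3, −0.20 to 0.04 (also 0.01 and 0.03) for Ube2r2, −0.51 to 0.17 (also 0.14) for Anpep, −0.33 to 0.19 (also −0.04) for Esd, −0.07 to 0.56 for Slc9a3 and −0.30 to 0.13 for Elovl6. At these counts, 5 to 11 or 0 per wild-type library for Enpep and 15 to 43 per DKO library for Cep72, fold changes carry the errors given and no finer difference can be read.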
